A study of Mus musculus with 91 samples.

Results

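The BMP and TGF-beta pathway genes described here are the 59 rows of the deposited count table whose symbols name a BMP, TGF-beta, activin or GDF ligand, a receptor, a Smad or Smurf, an extracellular antagonist, a latent TGF-beta binding protein or an Id protein, and that had a count in at least 3 of 91 cells. All 59 rows with such a symbol met that minimum, out of 16580 genes in the table, of which 16088 had a count in at least 3 cells. The cells are marrow stromal cells released by crushing bones of C57BL/6 mice, and every cell was made into a separate library by Smart-seq2, a full-length polyA method. All were sorted as negative for CD45, Ter119, CD41 and CD71, which mark blood cells, and positive for a Vibrant dye and for the adhesion molecule VCAM1, which marrow stroma carries. The gates were VCAM1+CD61+ with 39 cells, VCAM1+CD61- with 40 cells, and VCAM1+ with 9 cells and no split by CD61 (integrin beta 3), while 3 further cells carry labels that disagree and entered no comparison. The mice are described by strain and tissue, with no allele or treatment in the labels, and no label names an animal.

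Ligands of this family bind pairs of type I and type II receptors, which phosphorylate receptor Smads. BMP ligands mostly act through Smad1, Smad5 and Smad9, TGF-beta and activins through Smad2 and Smad3, and Smad4 joins both kinds of complex, while Smad6 and Smad7 hold the signal back. Secreted antagonists such as noggin, gremlin and the chordin family bind BMP ligands outside the cell, and the Id genes are classic transcriptional targets of BMP signalling. In bone, BMPs are known for inducing osteoblast formation, and TGF-beta is stored in the matrix bound to latent TGF-beta binding proteins.

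Without a named animal each gate was treated as 1 sample with no replicates, so no test was run and no p-value is given. Levels are counts per 1000000 (CPM), in which the counts of a gene were summed over the cells of a gate, plate or class and divided by their summed total. Intervals of ratios are exact 95% ones for the counting of reads alone, intervals of shares are exact binomial ones over the sorted cells and do not cover differences between animals, and reads of these libraries are not independent molecules. Total counts per cell ran from 507713 to 5301885 in CD61+ cells (median 1887613), from 741133 to 4991550 in CD61- cells (median 2368345) and from 1152643 to 6702475 in VCAM1+ cells. There were 2 plates of CD61+ cells, with 17 and 22 cells, and 2 of CD61- cells, with 24 and 16. Plates were inferred from the cell titles, which join a leading number, a gate and a well code but do not name a plate. Each pairing of number and gate was taken as 1 plate, as some well codes recur under the same number in both gates. Read this way, each plate held a single gate, so a gate difference may also be a plate difference. Whether the shared number marks a sort run common to both gates is not stated, and an effect of run was not tested. A gene was called between the gates when its summed CPM was at least 2-fold apart and both plates of the higher gate lay above both plates of the other.

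The highest members per length were Id targets and a small set of secreted regulators. Per kilobase of the longest annotated transcript, Id3 stood at 2272 CPM per kb in CD61+ cells and 3172 CPM per kb in CD61- cells, the highest level among the members. Id1 had 194 CPM per kb in CD61+ and 45.8 CPM per kb in CD61- cells, and Id2 189.9 CPM per kb in CD61+ and 196 CPM per kb in CD61- cells. On the same per-length scale Bmp4 had 149 CPM per kb in CD61+ cells and 314 CPM per kb in CD61- cells, Chrdl1 had 98.6 CPM per kb in CD61+ and 247 CPM per kb in CD61- cells, and Fstl1 had 171 CPM per kb in CD61+ and 202 CPM per kb in CD61- cells. The ligands other than Bmp4 and Bmp6 stayed at or under 8.11 CPM per kb in each gate. The level map by plate shows this contrast between a few abundant members and a long list of sparse ones.

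**Figure D1:**
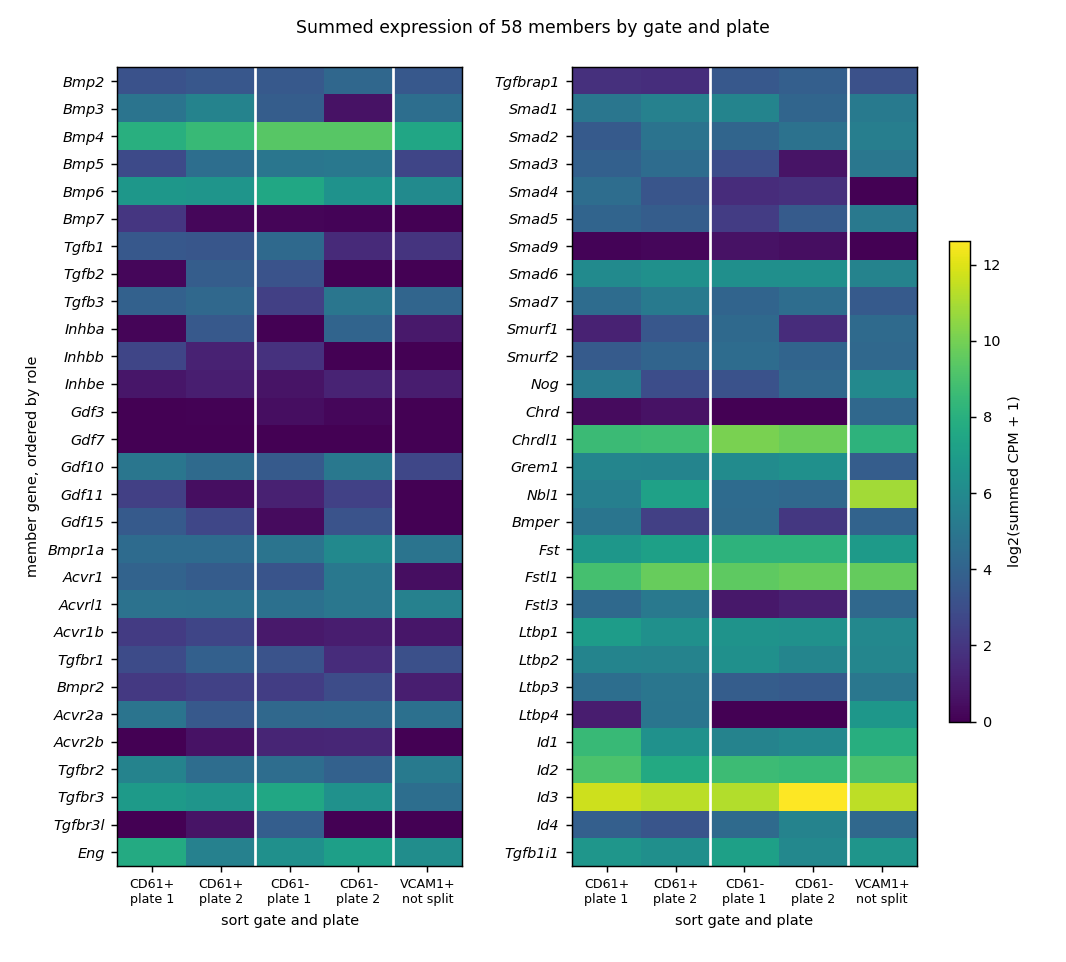
Summed expression of 58 of the 59 members (rows, ordered by role) in the 2 plates of the VCAM1+CD61+ gate, the 2 plates of the VCAM1+CD61- gate and the VCAM1+ gate (columns), as log2(summed CPM + 1). Id3, Chrdl1, Fstl1 and Bmp4 are the brightest rows of the CD61- plates, and Nbl1 stands out in the VCAM1+ column at 1881 CPM.

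Between the gates, 12 members were called higher in CD61+ cells, 10 were called lower and 37 were not called. The higher calls are 20.7% of the 58 members with a ratio, beside 13.5% of all 15811 genes with one, and the lower calls are 17.2%, beside 10.3% of all genes. By separation of the plates alone, 13 members lay above and 13 below, beside 20.2% and 17.0% of all genes. The median log2 ratio of CD61+ over CD61- was -0.09 over the members and 0.03 over all genes. The lower members included Bmp4, Bmp5, Chrdl1, Fst and Id4. The higher members included Bmp3, Smad3, Smad4, Smad5, Id1, Ltbp3, Ltbp4 and Nbl1.

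**Figure D2:**
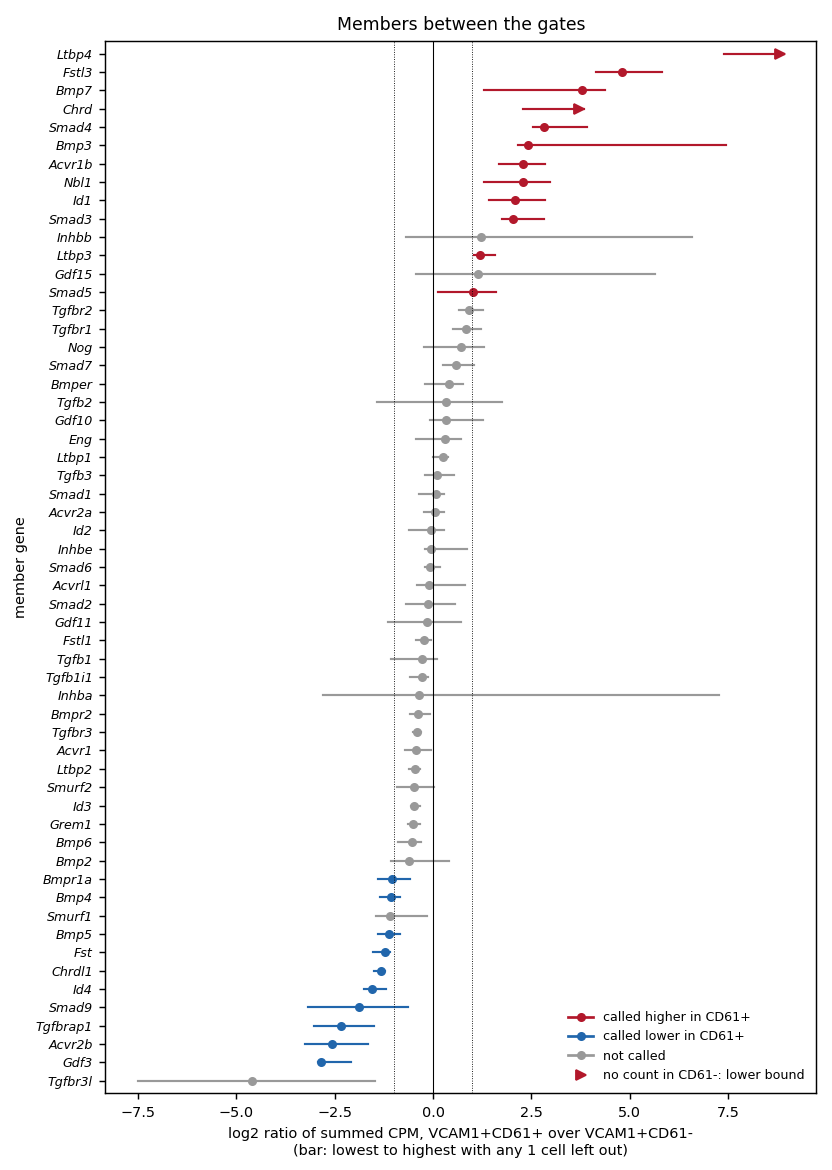
Log2 ratio of summed CPM, VCAM1+CD61+ over VCAM1+CD61-, for 57 of the 58 members with a ratio. Bars run from the lowest to the highest ratio with any 1 cell left out, dotted lines mark 2-fold, and triangles are lower bounds; calls for Chrdl1 and Fst keep their bars beyond the line, while the bars of Smad5, Bmp4, Bmp5, Bmpr1a and Smad9 cross it.

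Among the ligands, Bmp4, a potent inducer of bone and cartilage, had the most counts. In CD61+ cells it ran from 0 to 2126 CPM with a median of 0 CPM, and in CD61- cells from 0 to 3699 CPM with a median of 309.9 CPM. It had a count in 19 of 39 CD61+ cells and in 35 of 40 CD61- cells. With every cell thinned to 900000 counts, which left out 4 CD61+ and 1 CD61- cells, these became 15 of 35 and 32 of 39 cells. The CD61+ plates stood at 248 and 368 CPM and the CD61- plates at 646 and 648 CPM, so the plates did not overlap, although single cells did. The summed level was 2.11-fold lower in CD61+ cells (interval 2.08 to 2.14). Without 1 cell the fold lay between 1.81 and 2.56, so 1 cell can take it under 2-fold. The call was also lost with cells weighted equally (log2 ratio -0.87), after thinning (-0.84) and without CD61+ plate 1 (-0.81). Among cells with a count the median level was 497 CPM in CD61+ cells and 408 CPM in CD61- cells, so the median cell with a count was not lower in CD61+ cells, while the highest cell was.

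The other BMP ligands did not share 1 pattern. Bmp5 had 14.3 CPM in CD61+ cells and 30.98 CPM in CD61- cells and was 2.16-fold lower (2.01 to 2.32), a fold that lay between 1.80 and 2.62 without 1 cell. Without CD61+ plate 1 the log2 ratio was -0.44, no longer a call, and without CD61+ plate 2 it was -2.32. In the annotation, 46.7% of the exon bases of Bmp5 are shared with an antisense gene, Gm26903, and the strand setting of the counting is unknown here, so its counts are uncertain. Bmp6, made by stroma and endothelium and known for its part in iron control, had 97.5 CPM in CD61+ cells and 141 CPM in CD61- cells, and its plates overlapped (101 and 94.1 CPM in CD61+ plates, 181 and 87.4 CPM in CD61- plates). Bmp3, an atypical BMP that restrains osteogenic BMPs, went the other way. It had a count in 14 of 39 CD61+ cells and 4 of 40 CD61- cells, and its plates stood at 28.4 and 49.3 CPM in CD61+ and at 12.2 and 0.51 CPM in CD61- cells. The summed level was 5.36-fold higher in CD61+ cells (4.92 to 5.84). A single CD61- cell held 96.98% of the Bmp3 counts of its gate, and without it the ratio was 173. Bmp7 and Gdf3 were called at very low levels, 1.64 against 0.12 CPM and 0.04 against 0.28 CPM in CD61+ against CD61- cells. The call of Bmp7 was lost without CD61+ plate 1 (1.55-fold) and that of Gdf3 after thinning.

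The TGF-beta and activin ligands were sparse. Tgfb1 had a count in 27 of 39 CD61+ cells and 20 of 40 CD61- cells, yet its summed level was 9.64 CPM in CD61+ cells and 11.7 CPM in CD61- cells. Tgfb3 stood at 16.2 CPM in CD61+ and 15.1 CPM in CD61- cells, and Tgfb2 at 6.02 CPM in CD61+ and 4.82 CPM in CD61- cells, from 4 cells in each gate. Inhbe was in 22 CD61+ and 13 CD61- cells at under 1 CPM (0.89 and 0.91 CPM). None of these was called. At least 1 of the 3 TGF-beta ligands had a count in 33 of 39 CD61+ cells and 28 of 40 CD61- cells.

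Receptors were low and mostly not called between the gates. Bmpr1a, the main BMP type I receptor of skeletal cells, had 20.5 CPM in CD61+ cells and 42.7 CPM in CD61- cells. It was called 2.08-fold lower (1.96 to 2.21), and without 1 cell the fold lay between 1.49 and 2.66. Without CD61- plate 2 its log2 ratio was -0.46, no longer a call. Bmpr2, its type II partner, had 3.90 CPM in CD61+ cells and 5.10 CPM in CD61- cells, Acvr2a 19.3 CPM in CD61+ and 18.7 CPM in CD61- cells, and Acvr1 13.7 CPM in CD61+ and 18.5 CPM in CD61- cells. Acvr1b, an activin type I receptor, was called higher at 4.36 CPM in 5 CD61+ cells against 0.89 CPM in 7 CD61- cells, 4.88-fold, and between 3.18-fold and 7.16-fold without any 1 cell. The TGF-beta receptors Tgfbr1 and Tgfbr2 had 10.1 and 35.6 CPM in CD61+ cells, against 5.68 and 18.8 CPM in CD61- cells. Neither reached 2-fold with separate plates. At least 1 of that pair had a count in 35 of 39 CD61+ cells (89.7%, 75.8 to 97.1) and 26 of 40 CD61- cells (65.0%, 48.3 to 79.4). CD61+ cells also had the higher median number of genes per cell. Tgfbr3, the betaglycan co-receptor, was broad, with 106 CPM in CD61+ cells and 141 CPM in CD61- cells and counts in 33 and 36 cells.

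Of the Smads that carry the signal, Smad3, Smad4 and Smad5 were called higher in CD61+ cells and Smad9 lower. Smad9 was called at very low levels, 0.13 CPM in CD61+ and 0.48 CPM in CD61- cells. Smad4 had a count in 19 of 39 CD61+ cells (48.7%) and 3 of 40 CD61- cells (7.50%), and in 17 of 35 and 3 of 39 thinned cells. Its level ran from 0 to 134 CPM in CD61+ cells and from 0 to 35.1 CPM in CD61- cells, with a median of 0 CPM in both. The plates stood at 21.7 and 9.03 CPM in CD61+ and at 2.09 and 2.33 CPM in CD61- cells. The summed level was 7.06-fold higher (6.08 to 8.24) and stayed between 5.84-fold and 15.1-fold without any 1 cell. Without CD61+ plate 1 it was 4.13-fold higher. In the VCAM1+ gate Smad4 had 0.03 CPM, a count in 1 of 9 cells.

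Smad3 had a count in 16 CD61+ cells and 9 CD61- cells, and its plates stood at 13.7 and 21.5 CPM in CD61+ and at 7.04 and 0.59 CPM in CD61- cells, a 4.08-fold higher sum (3.64 to 4.58). This fold depended on the CD61- plates, at 29.8 without CD61- plate 1 and 2.49 without CD61- plate 2. Smad5 was at 13.9 CPM in CD61+ cells and 6.92 CPM in CD61- cells, 2.01-fold higher, and 1.09-fold higher at the least without 1 cell, as 1 CD61+ cell held 47.8% of its counts in that gate. Its call was also lost under both other scalings and without CD61- plate 1 (log2 ratio 0.32). Smad1 had 38.01 CPM in CD61+ cells and 36.1 CPM in CD61- cells, and Smad2 18.8 CPM in CD61+ and 20.6 CPM in CD61- cells, both uncalled. The inhibitory Smad6 was not called, at 72.8 CPM in CD61+ cells and 77.0 CPM in CD61- cells. Smad7, an early feedback target of TGF-beta and BMP, had a count in 29 of 39 CD61+ cells and 17 of 40 CD61- cells, and in 26 of 35 and 13 of 39 thinned cells. Its summed level was 27.5 CPM in CD61+ cells and 18.4 CPM in CD61- cells, which is not a call.

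**Figure D3:**
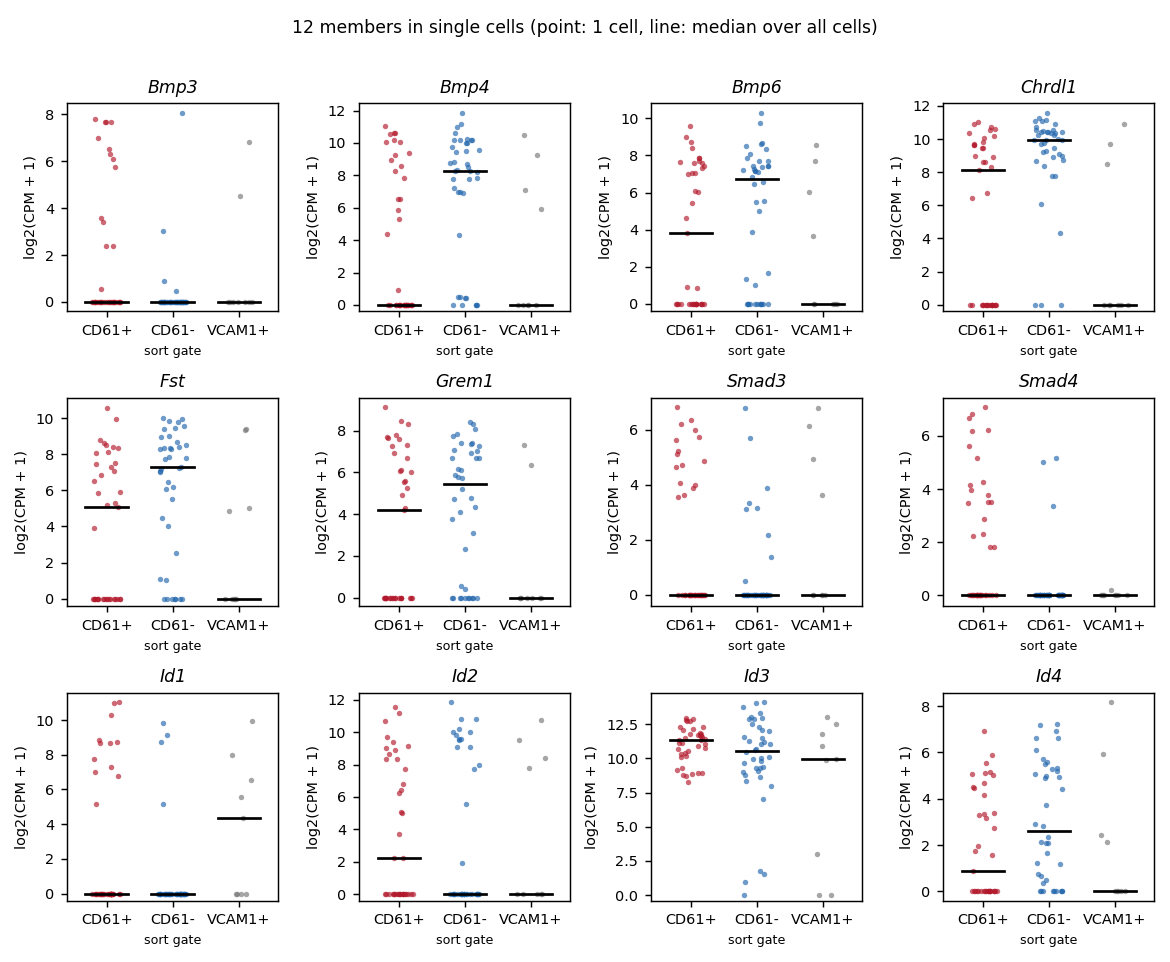
Log2(CPM + 1) of 12 members in each cell of the VCAM1+CD61+, VCAM1+CD61- and VCAM1+ gates, with a line at the median over all cells of the gate. Bmp4, Chrdl1 and Fst have many CD61+ cells at 0 and few CD61- cells at 0, Smad4 shows the opposite with 19 of 39 against 3 of 40 positive cells, and Id3 is present in 39 cells of each CD61 gate.

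Chrdl1, Fst and Grem1 act outside the cell, and the first pair was called lower in CD61+ cells. Chrdl1, chordin-like 1, which binds BMPs, ran from 0 to 2134 CPM in CD61+ cells (median 279 CPM) and from 0 to 3048 CPM in CD61- cells (median 988 CPM). It had a count in 22 of 39 CD61+ cells and 37 of 40 CD61- cells. The CD61+ plates stood at 386 and 423 CPM and the CD61- plates at 1104 and 883 CPM, with no overlap. The summed level was 2.50-fold lower in CD61+ cells (2.47 to 2.53) and stayed between 2.33-fold and 2.81-fold lower without any 1 cell. Fst, follistatin, which neutralises activins, had 122 CPM in CD61+ cells and 287 CPM in CD61- cells, 2.35-fold lower (2.30 to 2.41). Its call was lost with cells weighted equally (log2 ratio -0.84) and after thinning (-0.93). Grem1, gremlin 1, a BMP antagonist, had 51.7 CPM in CD61+ cells and 73.0 CPM in CD61- cells and was in 20 and 30 cells. Its plates did not overlap (53.2 and 50.1 CPM in CD61+, 67.2 and 80.9 CPM in CD61-), but the difference stayed under 2-fold. Fstl1 was in 38 cells of each gate and uncalled, at 649 CPM in CD61+ cells and 764 CPM in CD61- cells.

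Nbl1, a DAN-family BMP antagonist, and Fstl3, a follistatin relative, were called higher from few cells. Nbl1 had a count in 10 CD61+ cells and 5 CD61- cells, at 95.4 and 19.7 CPM, and 1 CD61+ cell held 50.2% of its counts in that gate. The fold of 4.84 lay between 2.47 and 7.81 without any 1 cell, and was 7.62 without CD61+ plate 1 and 2.17 without CD61+ plate 2. Fstl3 had 25.9 CPM from 4 CD61+ cells and 0.93 CPM from 3 CD61- cells. In the annotation 47.3% of its exon bases are shared with Prss57 on the opposite strand, so its counts are uncertain. Of the latent TGF-beta binding proteins, Ltbp3 was 2.27-fold higher (2.11 to 2.44) at 26.5 CPM in CD61+ cells and 11.7 CPM in CD61- cells, a call lost without CD61+ plate 2 (log2 ratio 0.95). Ltbp4 had 14.7 CPM from 8 CD61+ cells and no count in CD61- cells. Taking 3 counts over the gate as the floor, it was at least 451-fold higher in CD61+ cells. A single CD61+ cell held 63.4% of its counts, and the bound was 168-fold without it and 32.2-fold without CD61+ plate 2. The CD61+ plates stood far apart for Ltbp4 (1.05 and 28.9 CPM). Ltbp1, at 103 CPM in CD61+ cells and 86.3 CPM in CD61- cells, and Ltbp2, at 50.3 CPM in CD61+ and 68.6 CPM in CD61- cells, were not called.

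The 4 Id genes did not move together. Id3 was close to universal, with a count in 39 of 39 CD61+ cells and 39 of 40 CD61- cells, and ran from 315 to 7826 CPM (median 2554 CPM) in CD61+ cells and from 0 to 17665 CPM (median 1498 CPM) in CD61- cells. Its plates stood at 3221 and 2574 CPM in CD61+ and at 2340 and 6361 CPM in CD61- cells, so the plates of 1 gate lay on either side of the other. Id2 was uncalled at 374 CPM in CD61+ cells and 385 CPM in CD61- cells. Id1 had a count in 12 CD61+ and 4 CD61- cells and was 4.24-fold higher (4.10 to 4.38), with plates at 361 and 84.4 CPM in CD61+ and at 49.6 and 58.0 CPM in CD61- cells. The fold lay between 2.67 and 7.14 without any 1 cell. The call was lost without CD61+ plate 1 (1.59-fold) and without the cells that had at least 4 counts of Cdh5 or Ptprc, markers of endothelium and blood cells (1.93-fold). Id4 was 2.92-fold lower (2.70 to 3.15), at 11.0 CPM in CD61+ cells and 32.1 CPM in CD61- cells, a call lost without CD61- plate 2 (log2 ratio -0.83).

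Immediate early genes, which are also raised by tissue dissociation, moved between the gates, with 9 of 21 called lower in CD61+ cells and 0 called higher. Their summed level was 11624 and 5561 CPM in the CD61+ plates and 14478 and 27073 CPM in the CD61- plates. Across the 88 gated cells the Spearman correlation of Id3 with Fos was 0.55, and it was 0.44 over 23 osteolineage-like and 0.54 over 44 CAR-like cells, the classes of the next paragraphs. These cells share plates and libraries, and the part of this signal in the Id3 level was not tested.

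The gates held different kinds of cell. The 88 gated cells were clustered on other genes, with the members and the other pathway genes left out, and clusters were named from marker lists. Clusters 2 and 7, with 16 and 7 cells, were osteolineage-like, led by bone matrix genes such as Spp1 and Bglap2. Clusters 1, 3 and 6, with 24, 12 and 8 cells, were CAR-like, after CXCL12-abundant reticular cells, the stromal cells that support blood stem cells. CD61+ cells held 18 osteolineage-like and 13 CAR-like cells, and CD61- cells held 4 osteolineage-like and 29 CAR-like cells. Cluster 7 also had 15 of 16 CAR markers in at least 50% of its cells, and 12 cells of low depth (cluster 4, median 1110100 counts) stayed unnamed. Of the markers themselves, 10 of 19 osteolineage genes were called higher in CD61+ cells and 1, Phex, lower. Of 16 CAR genes, 10 were called lower and 0 higher. Of all genes, 13.5% were called higher and 10.3% lower.

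In osteolineage-like cells, 7 members were called higher than in CAR-like cells, 16 were called lower and 36 were not called. A call here needed 2-fold between the classes, each summed over all gates and plates. It also needed the same direction in both CD61+ plates, the only plates with at least 3 cells of each class. Of the osteolineage-like cells 18 of 23 are CD61+, and of the CAR-like cells 29 of 44 are CD61-. The class folds so mix class with gate and plate. The higher calls are 12.1% of the 58 members with a ratio, beside 7.86% of 15678 genes, and the lower calls are 27.6%, beside 15.6% of those genes. The median log2 ratio was -0.53 over the members and -0.39 over all genes. The classes come from the same libraries as the gates, so both comparisons share cells and neither supports the other. At a coarser resolution of 0.6, 4 plates held enough cells of each class and had to share the direction, which left 2 members higher and 12 lower, beside 1.95% and 7.94% of all genes. With 15 neighbours and 4 plates 2 were higher and 10 lower, beside 2.23% and 6.62% of all genes. The direction was also asked only of the CD61+ plates, a choice made after seeing the data. Resolution 0.6 then gave 8 higher and 16 lower, beside 9.08% and 12.1% of all genes. With 15 neighbours 8 were higher and 14 lower, beside 9.97% and 9.88% of all genes.

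Members called lower in osteolineage-like cells included a block of secreted BMP regulators. Bmp4 had a count in 7 of 23 osteolineage-like cells and 40 of 44 CAR-like cells, with medians of 0 and 470.1 CPM, and its sum was 14.04-fold lower in osteolineage-like cells (13.5 to 14.6), at 53.5 CPM against 751 CPM. A single osteolineage-like cell held 64.8% of the counts of that class, and without any 1 cell the fold lay between 12.5 and 38.6. Bmp6 stood at 20.0 CPM in osteolineage-like cells and 184 CPM in CAR-like cells, 9.22-fold lower (8.68 to 9.79), and between 8.25-fold and 17.3-fold lower without any 1 cell. Chrdl1 had a count in 7 of 23 osteolineage-like cells and 43 of 44 CAR-like cells, at 118 CPM against 1144 CPM. Fst was at 28.2 CPM in osteolineage-like and 366 CPM in CAR-like cells, and Grem1 at 8.99 CPM in osteolineage-like and 90.5 CPM in CAR-like cells, 10.1-fold lower and between 9.01-fold and 17.3-fold without any 1 cell. Ltbp2, a matrix protein of the latent TGF-beta binding family that does not itself bind latent TGF-beta, was 52.8-fold lower in osteolineage-like cells (44.0 to 63.9), at 2.03 CPM against 107 CPM. Id4 was 7.76-fold lower (6.83 to 8.85; 6.43 to 14.05 without any 1 cell), at 4.41 CPM in osteolineage-like and 34.2 CPM in CAR-like cells. The broad members Fstl1, Ltbp1 and Tgfbr3 were 5.73-fold, 2.38-fold and 3.26-fold lower in osteolineage-like cells.

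Within the osteolineage-like class, cluster 2 held few counts of these genes. Chrdl1, Grem1 and Id4 had no count in any of its 16 cells, which allows a level of up to 0.07 CPM each, the level of 3 counts over the cluster. Bmp6 was in 1 of those 16 cells, and Bmp4 and Fst in 4 each. In cluster 7 Chrdl1 was in 7 of 7 cells at 481 CPM, Id4 in 6 and Grem1 in 5, so these 7 cells carried the class's counts of all 3 genes. Gdf10, also called Bmp3b, was in 7 of 7 cells of cluster 7 at 108 CPM and in 1 of 16 cells of cluster 2 at 3.29 CPM. Noggin (Nog) had 123 CPM in cluster 7, from 3 cells, and 3.48 CPM in cluster 2.

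The promoters of 3 members called lower in osteolineage-like cells, chosen after their values were seen, are shown as windows with and without a Smad element. Their 250 bases before the RefSeq start overlap no annotated exon. Capitals mark GGCGCC, a GC-rich element bound by BMP-activated Smads, and sequences read 5′ to 3′ on the gene's strand in RefSeq's GRCm38.p6: Bmp4 at chr14:46390670-46390919 (minus), Grem1 at chr2:113758649-113758898 (minus) and Id4 at chr13:48260866-48261115 (plus).
Bmp4: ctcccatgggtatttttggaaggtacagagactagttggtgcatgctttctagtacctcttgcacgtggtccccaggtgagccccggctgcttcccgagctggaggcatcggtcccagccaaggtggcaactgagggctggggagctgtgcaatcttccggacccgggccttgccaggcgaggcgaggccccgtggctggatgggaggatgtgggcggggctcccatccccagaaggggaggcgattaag
Grem1: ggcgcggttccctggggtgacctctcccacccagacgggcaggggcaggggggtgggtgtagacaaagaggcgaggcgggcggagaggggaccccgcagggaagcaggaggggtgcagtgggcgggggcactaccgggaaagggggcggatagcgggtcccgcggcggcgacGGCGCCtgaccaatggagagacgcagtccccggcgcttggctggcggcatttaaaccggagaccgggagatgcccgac
Id4: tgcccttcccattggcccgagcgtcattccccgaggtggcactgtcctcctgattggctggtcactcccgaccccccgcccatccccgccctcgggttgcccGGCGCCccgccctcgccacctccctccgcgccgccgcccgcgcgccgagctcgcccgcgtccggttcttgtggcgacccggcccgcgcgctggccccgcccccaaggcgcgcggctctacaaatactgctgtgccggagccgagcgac
Grem1 and Id4 hold 1 match each and Bmp4 none. The exon-free windows of Acvr2a, Bmper and Ltbp1, also called lower in osteolineage-like cells, hold none. Nor do the windows of the lower members Acvr1b, Bmp5, Bmp6, Fstl1, Ltbp2 and Tgfb2, which overlap exons. Of the members called higher in osteolineage-like cells, Ltbp4, Nbl1, Smurf2 and Tgfbr1 have the element in at least 1 window. Fstl3 and Ltbp3, also called higher, have a window without it. Of 43 members with a window, 13 hold the element in at least 1 window (30.2%), beside 2931 of 27025 genes (10.8%), counting both strands of this palindrome. Those genes are all with a RefSeq window, not matched to the members for expression or GC content. GTCTAGAC, the palindromic Smad box, was in 0 member windows and in 54 genes (0.20%). These matches describe letters and not bound sites.

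On the osteolineage-like side, Bmp3 was the most restricted member. It had a count in 16 of 23 osteolineage-like cells and 2 of 44 CAR-like cells, at 74.5 CPM against 0.02 CPM, which rests on 2 counts in CAR-like cells. Against the floor of 3 counts the ratio was 2530, and the counting interval ran from 1050 to 31352. In cluster 2, 14 of 16 cells had Bmp3, at 98.6 CPM, and in cluster 7, 2 of 7 cells, at 0.63 CPM. Nbl1 was 13.9-fold higher in osteolineage-like cells (12.97 to 14.9), in 12 of 23 against 3 of 44 cells, and between 10.2-fold and 26.9-fold higher without any 1 cell. Tgfbr1 was 2.83-fold higher (2.53 to 3.16), at 14.7 CPM against 5.19 CPM. Smurf2, a ubiquitin ligase that targets Smads and receptors, was 3.11-fold higher, and Ltbp3 2.19-fold higher. Without 1 cell these last 2 reached down to 1.86-fold and 1.90-fold, and the lower call of Bmper to 1.79-fold. Bmp8a, a further BMP outside the members, was in 15 of 23 osteolineage-like cells and 0 of 44 CAR-like cells.

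**Figure D4:**
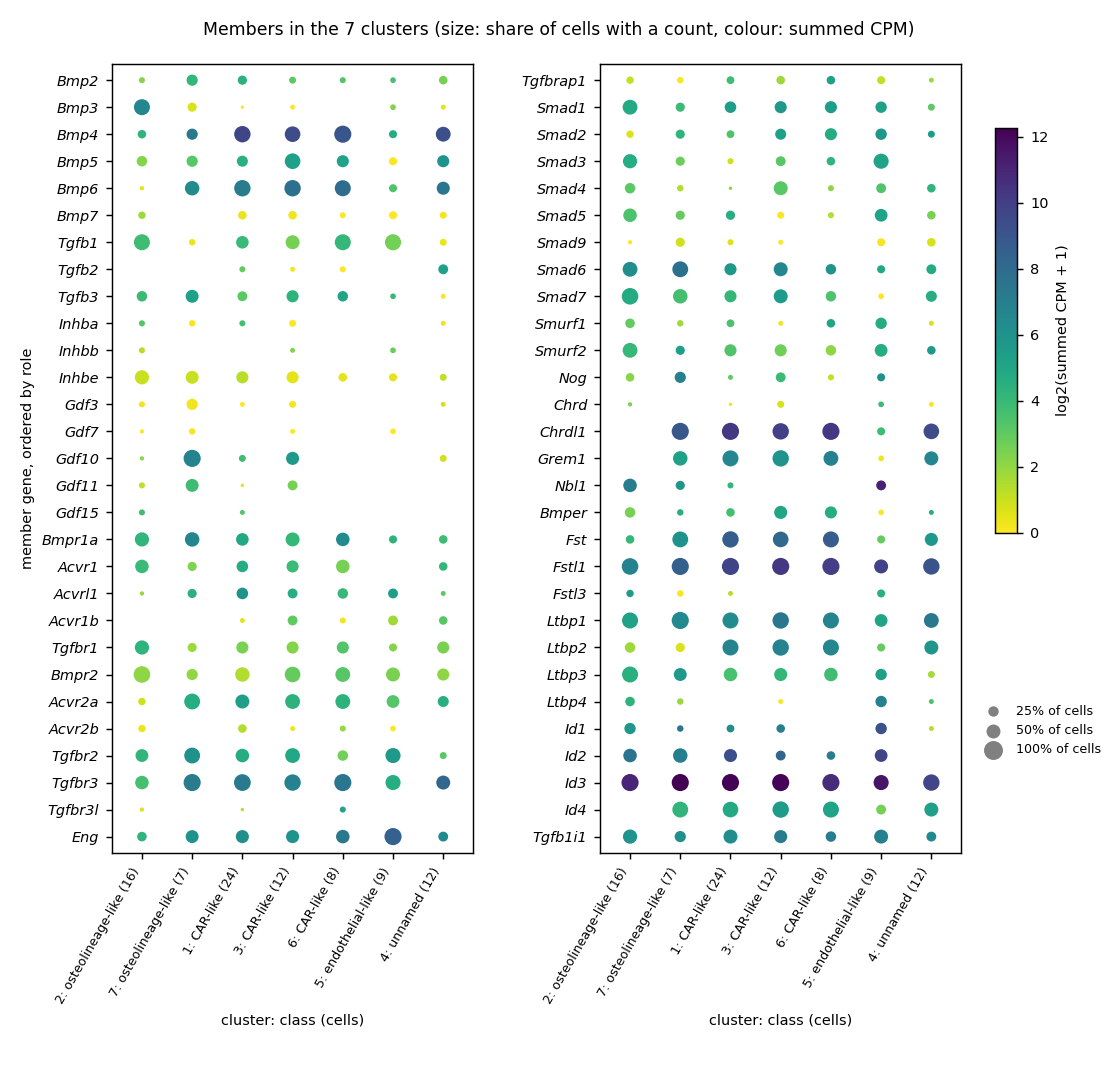
The same 58 members (rows, ordered by role) in the 7 clusters, with the osteolineage-like clusters left of the CAR-like ones. Dot size is the share of cells with a count and colour the log2(summed CPM + 1); Chrdl1, Grem1 and Id4 have no dot in cluster 2, while Bmp3 has its largest dot there, in 14 of 16 cells.

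The gate and class comparisons share cells, so their calls are given side by side. Bmp3, Fstl3, Ltbp3, Ltbp4 and Nbl1 were called higher in both, and Bmp4, Bmp5, Chrdl1, Fst and Id4 lower in both. Acvr1b was called in opposite directions, higher in CD61+ cells, and lower in osteolineage-like cells, where it had no count, against 2.47 CPM in CAR-like cells. Smad3, Smad4, Smad5 and Id1 were called between the gates and not between the classes, and that difference was not tested.

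Within CAR-like cells the secreted members differed in how the gates stood. Over 13 CD61+ and 29 CD61- CAR-like cells, Bmp4 had 653 CPM in CD61+ and 773 CPM in CD61- cells. Chrdl1 had 898 CPM in CD61+ and 1194 CPM in CD61- CAR-like cells. Bmp6, at 262 CPM in CD61+ and 146 CPM in CD61- CAR-like cells, and Ltbp2, at 143 CPM in CD61+ and 84.1 CPM in CD61- CAR-like cells, were higher on the CD61+ side there. Smad4 kept its difference, with 14.3 CPM in CD61+ and 1.99 CPM in CD61- CAR-like cells and counts in 8 of 13 against 2 of 29 cells. Smad7 stood at 47.9 CPM in CD61+ and 18.05 CPM in CD61- CAR-like cells, with overlapping plates (19.1 and 78.8 CPM in CD61+, 12.8 and 26.1 CPM in CD61-). The clusters that hold most CAR-like cells differ between the gates, cluster 3 with 7 of 13 in CD61+ and cluster 1 with 18 of 29 in CD61- cells.

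Over single cells, Bmp4 and Chrdl1 had a Spearman correlation of 0.60 across 88 cells and of 0.17 within the 44 CAR-like cells. Chrdl1 and Fst had 0.69 and 0.35 over the same cells. Within the CAR-like cells of single plates, 6 to 19 cells each, the sign changed. The values ran from -0.23 to 0.43 for Bmp4 and Chrdl1, and from -0.30 to 0.90 for Chrdl1 and Fst. These are descriptions of cells that share plates and depth. Ligand and antagonist were present side by side, since at least 1 of 8 BMP antagonists had a count in 34 of 39 CD61+ cells and 39 of 40 CD61- cells. At least 1 of 6 BMP ligands had a count in 37 and 39 cells of these gates.

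Endoglin (Eng), a co-receptor, and Acvrl1 (ALK1), a type I receptor, are known for endothelium. Cluster 5, with 9 cells, was endothelial-like by Egfl7, Ly6c1 and Plvap, and it also held fibroblast markers such as Ly6a. Of its cells, 4 had at least 4 counts of Cdh5, the defining endothelial cadherin, and 5 did not. Eng ran from 349 to 1889 CPM in those 4 cells (937 CPM summed), and over the 79 gated cells outside the cluster it summed to 66.1 CPM. In the other 5 cells of the cluster it summed to 52.4 CPM. Id1 was in 3 of the 4 cells, at 1025 CPM summed, against 75.1 CPM in the 79 other cells. Nbl1 had no count in the 4 Cdh5 cells and 3414 CPM over the other 5, in 3 cells. Endothelial markers summed to 1759 and 234 CPM in the CD61+ plates and to 11.9 and 516 CPM in the CD61- plates. Id1 was highest in the plate with the most endothelial counts, CD61+ plate 1, where the 2 Cdh5 cells had 2093 and 1999 CPM of it. The Cdh5 cell of CD61- plate 2 had no Id1 count. CD61+ plate 2 had more Id1 and a lower endothelial sum than CD61- plate 2. A link between Id1 and these sums was not tested. With the 2 CD61+ and 2 CD61- cells that had at least 4 counts of Cdh5 or Ptprc left out, 11 members were called higher and 10 lower, Id1 being the call that was lost. Fibroblast markers summed to 2225 and 7260 CPM in the CD61+ plates and to 1161 and 772 CPM in the CD61- plates, and Ltbp4 and Nbl1 were highest in the CD61+ plate with the most. In CAR-like and osteolineage-like cells alone Nbl1 was 2.57-fold and Ltbp4 at least 366-fold higher in CD61+ cells.

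Other genes of the pathway were called in both directions, and their counts stand beside the 13.5% higher and 10.3% lower of all genes. Of 22 further secreted regulators, 5 were higher in CD61+ cells and 0 lower, among them Bmp1, the procollagen C-proteinase that also cleaves chordin, at 206 CPM in CD61+ cells and 60.7 CPM in CD61- cells. Of 20 intracellular regulators, 2 were higher and 3 lower, including Map3k7 (TAK1) at 12.5 CPM in CD61+ cells and 36.4 CPM in CD61- cells. Of 18 response genes, 4 were higher and 2 lower. Tgfbi, a TGF-beta-induced matrix protein, stood at 30.2 CPM in CD61+ cells and 2.20 CPM in CD61- cells, and Msx1, a homeobox gene known as a BMP target, at 11.6 CPM in CD61+ and 27.2 CPM in CD61- cells. Response genes of the pathway so lay on both sides.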

How the data were processed

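Single marrow stromal cells were index-sorted and sequenced, 1 library per cell. The authors deposited expected counts per gene, all of them whole numbers, and index-sort fluorescence intensity per cell. The submitters' processing notes name kallisto 0.43.0, R 3.5.1 and the mm10 build. The transcript annotation and strand setting are not given in the sources used here. Of the deposited columns, 45 match no sample and were not used, and 3 cells whose labels disagree on the gate entered no comparison. The values of some genes that enter the counts are not reported here.

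Counts were summed per gate, plate or class and divided by the summed total to give CPM, with 1 gate treated as 1 sample and the floor set at 3 counts. Gene types, lengths and overlaps came from GENCODE vM21, which matched 59 of 59 members and 16526 of 16580 genes. No cell was removed and no doublet caller was run. Cells were clustered with scanpy 1.11.5 on 2000 variable genes, without the members and other pathway genes, with 15 components, 10 neighbours and Leiden resolution 1. For a cluster to be named, 3 or more markers of a list had to be detected in 50% or more of its cells. The mean over the list also had to exceed that of the other cells, with at least 1 marker among the cluster's top 10 genes. The code for ratios, intervals and calls was run on simulated counts with known folds, without plate effects or cell classes. That checks the code and not the calls in these data. Scalings came from edgeR 4.0.16 and DESeq2 1.42.0 in R 4.3.3, for scaling only, with Python 3.11.15 for the rest.

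The members and gene lists were chosen with earlier results of these data known. Members were to be described singly when detected in 50% or more of any gate's cells or when called, up to 30 by share of cells, and those described beyond these 30 (among them Bmp3, Smad4, Id1, Nbl1, Ltbp4 and Fstl3) were chosen after their values were seen. Alternatives were another fold, other scalings, mean CPM, other filters, thinned cells, other clusterings, and cells or plates left out.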

Additional observations from a re-analysis of the deposited data

Results flagged for a closer look

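In the 9 cells of the VCAM1+ gate, which entered no comparison, members reported here with levels at least 2-fold above the highest plate of the CD61 gates were Nbl1, Ltbp4, Smad5 and Chrd. Nbl1 had 1881 CPM from 3 cells, against 150.0 CPM in that highest plate. Ltbp4 had 101 CPM from 4 cells, against 28.9 CPM. Smad5 had 33.99 CPM from 7 cells, against 15.7 CPM. Chrd, chordin, had 18.1 CPM from 3 cells, against 0.56 CPM. Of these 9 cells, 4 belong to the endothelial-like cluster. Among those 4, the cells with Nbl1 (8104 and 1635 CPM) had no Cdh5 count, and Dcn, a fibroblast marker, at 16619 and 8161 CPM. Ltbp4 stood at 224 and 314 CPM in them, and Chrd at 65.2 and 0 CPM. Smad5 was highest, at 168 CPM, in another cell without Cdh5. The cell with Cdh5 had no Nbl1 or Chrd, Ltbp4 at 48.3 CPM and Smad5 at 66.3 CPM. What the kind of cell has to do with these levels was not tested.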

How the results depend on the processing

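Between the gates, 11 to 13 members were called higher and 8 to 12 lower with any 1 cell left out, and 11 to 18 and 10 to 14 with any 1 plate left out. Leaving out a plate asks less of a call, and 19.004% to 26.5% of all genes were then higher and 16.03% to 20.01% lower. After thinning to 900000 counts 6 were called lower, against 10 in the main result, and the same deeper cells at full depth gave 10. The median log2 ratio of the members, -0.09 in the main result, was 0.21 with the mean CPM over cells, and -0.23 to 0.14 with plates left out. Leaving out CD61- plate 1 moved the median of all genes to 0.28. Under the other settings 10 to 13 members were called higher and 7 to 11 lower. Of the 30 members described by the naming rule, no called one changed direction in any setting run. Uncalled ones were not counted for this, and among them Id3 turned from lower to higher in CD61+ cells without CD61- plate 2. Between the classes, the higher calls numbered 2 at resolution 0.6 and 2 with 15 neighbours, where the lower calls numbered 10, against 7 and 16 in the main result, but 4 plates in place of 2 then had to share the direction. With the direction asked of the CD61+ plates only, these clusterings gave 8 higher each, beside 9.08% and 9.97% of all genes. Resolution 1.4 gave 8 higher and 13 lower, beside 9.60% and 10.7% of all genes. With plates left out the class calls numbered 7 to 11 higher and 17 to 22 lower. Of all genes, 8.66% to 12.9% were then higher and 16.9% to 25.4% lower. The deep cells at full depth, the direction asked of the CD61+ plates only, leaving out the unnamed cluster, and keeping only CAR-like and osteolineage-like cells were chosen after seeing the data. No paired analysis was possible because replicate numbers follow accession order and only name cells. Depth limits the sparse members, of which many rest on a few cells.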

Other observations

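Among genes outside the members, Dlx3, a homeobox target of BMP in bone, stood at 33.96 CPM in osteolineage-like cells and at 0 CPM in CAR-like cells.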
